A study of Arabidopsis thaliana with 4 samples.

Results

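Gibberellin oxidases are the enzymes that carry out the last steps in making gibberellin and the first step in removing it. Transcript levels of 10 of their genes were followed by RNA sequencing in Arabidopsis thaliana plants that overexpress the transcription factor TEM1 (35S:TEM1, 2 samples) and in wild-type plants (WT, 2 samples). The 10 genes were picked by locus identifier from the 32678 loci of the deposited table: GA20OX1 (AT4G25420), GA20OX2 (AT5G51810), GA20OX3 (AT5G07200), GA3OX1 (AT1G15550), GA3OX2 (AT1G80340), GA2OX1 (AT1G78440), GA2OX2 (AT1G30040), GA2OX4 (AT1G47990), GA2OX6 (AT1G02400) and GA2OX8 (AT4G21200). Every sample was 1 pool of 20 whole plants aged 10 days, raised at 22 °C under LD, with harvest at ZT18. In 35S:TEM1 plants TEM1 is driven by the 35S promoter of cauliflower mosaic virus, which is active in most tissues. The sources used here do not say how many transgenic lines were used, nor whether the pools of a genotype came from separate growth rounds, and the p-values reflect how far the pools of a genotype differ, which may be technical.

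Gibberellins are plant hormones that promote stem growth, germination and flowering. GA 20-oxidases and GA 3-oxidases act in sequence, and the 3-oxidase step yields the bioactive hormone. GA 2-oxidases add a hydroxyl group that inactivates bioactive gibberellins and their precursors. The hormone binds GID1 receptors, which leads to the loss of DELLA repressor proteins, and this response in turn lowers the transcripts of several 20-oxidase and 3-oxidase genes and raises those of 2-oxidase genes. TEM1, a RAV-family repressor of flowering, is known to bind and repress GA3OX1 and GA3OX2.

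Levels are given as RPKM, reads scaled by gene length and library total, so genes can be compared with each other. Because each RPKM value is a whole number of reads divided by a gene length and a scaling total, reads could be recovered. The scaling totals were 20183817 and 27807143 reads in 35S:TEM1 replicates 1 and 2, and 30425737 and 24140725 reads in WT replicates 1 and 2, and at these totals a gene length that gives whole reads in all 4 samples was found for each of the 24315 loci above 0. No larger multiple of that length fitted within the annotated exon length for 22702 of these loci, the 10 members included. Any locus without an annotated length is counted among them, although its length has no such limit. For the others length and reads are known only up to a common multiple. The recovered reads summed to 1.022 to 1.023 times the scaling totals, so these totals are near the depth of the libraries but may not be their exact read counts. The overexpressed gene itself bore out the labels, with 784 and 827 RPKM in the 35S:TEM1 samples, against 16.3 and 30.3 RPKM in the WT samples. Genes were tested with limma on log2(RPKM + 1) where their mean over the 4 samples was at least 1 RPKM, and an adjusted p under 0.05 was a call. Of the 10 members 3 met that limit. A second limma fit (voom) on the recovered reads of every locus with at least 10 reads, chosen after the data were seen, covered 9 members, and its log2 fold changes are not compressed by the added 1.

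Of the 3 tested members the 3-oxidase gene GA3OX1 fell, and the 2-oxidase genes GA2OX2 and GA2OX6 rose. On the log2(RPKM + 1) scale neither 2-oxidase call held with equal medians, under quantile normalization, or with replicate 2 of 35S:TEM1 or replicate 1 of WT left out. The scarce 2-oxidase gene GA2OX1 was lower in 35S:TEM1 by its few reads. These 3 calls stand against a background in which 25.7% of 17746 tested genes were called, 18.3% as higher and 7.37% as lower. That split depends on the scaling: 71.3% of all calls were higher as deposited, 44.1% after sample medians were made equal and 52.0% under quantile normalization. The median log2 fold change of all tested genes was 0.12, and relative to it GA3OX1 stood at -1.72, GA2OX2 at 0.55 and GA2OX6 at 0.62. On the reads 4 of 9 members rose (GA20OX2, GA2OX2, GA2OX4 and GA2OX6), 1 fell (GA3OX1) and 4 did not pass. GA2OX4 reached 10 reads only through 35S:TEM1 and GA2OX1 only through WT, so the count of members in this fit is a description. In the fit 26.2% of 21401 loci were called, 19.0% as higher and 7.16% as lower. Across all 10 members the samples of the genotypes did not overlap for 7, of which 5 were higher and 2 lower in 35S:TEM1. Among all 24315 loci above 0 the genotypes did not overlap for 61.2%, with 43.1% higher and 18.1% lower, so a count of 7 in 10 is close to the background.

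**Figure D1:**
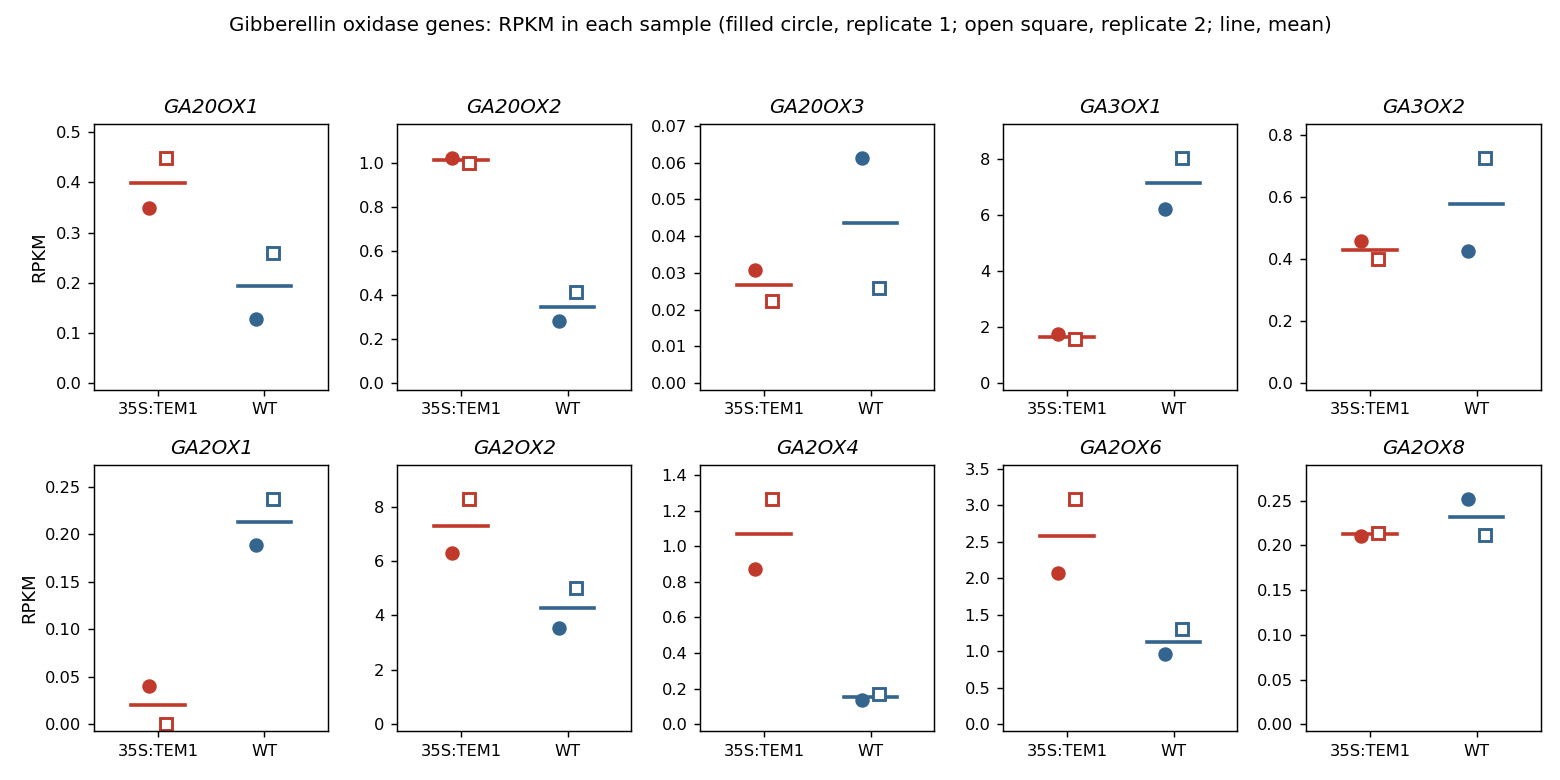
RPKM of each of the 10 gibberellin oxidase genes in the 4 samples (vertical axes, each with its own scale), with 35S:TEM1 on the left and WT on the right of each panel. GA3OX1 lies between 1.57 and 1.74 in 35S:TEM1 and between 6.23 and 8.05 in WT, while GA2OX4 lies between 0.872 and 1.27 in 35S:TEM1 and between 0.136 and 0.172 in WT.

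The 5 members called in either fit lie on chromosomes 1 and 5, and none of the 10 gene spans overlaps another annotated gene in RefSeq's TAIR10.1 annotation. The 250 bases before the annotated start of each of the 5 are printed 5′ to 3′ on the gene's own strand, because a factor that binds DNA differs between the genotypes. The motifs CAACA and CACCTG, both known from the binding sites of RAV proteins, were searched on both strands (also as TGTTG and CAGGTG), and matches are in capitals. No CACCTG was found in these windows, so no matches of the motifs overlap.
GA3OX1, chr1:5346343-5346592, minus strand: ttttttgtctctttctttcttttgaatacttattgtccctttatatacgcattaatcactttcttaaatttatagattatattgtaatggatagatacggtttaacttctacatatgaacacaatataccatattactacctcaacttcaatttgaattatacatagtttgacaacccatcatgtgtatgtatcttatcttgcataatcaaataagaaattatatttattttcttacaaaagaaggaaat
GA2OX2, chr1:10537207-10537456, plus strand: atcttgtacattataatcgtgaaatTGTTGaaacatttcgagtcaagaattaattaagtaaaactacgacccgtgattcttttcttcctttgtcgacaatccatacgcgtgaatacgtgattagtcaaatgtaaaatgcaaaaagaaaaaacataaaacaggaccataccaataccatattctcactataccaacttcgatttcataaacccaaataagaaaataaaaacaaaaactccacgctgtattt
GA2OX4, chr1:17698348-17698597, plus strand: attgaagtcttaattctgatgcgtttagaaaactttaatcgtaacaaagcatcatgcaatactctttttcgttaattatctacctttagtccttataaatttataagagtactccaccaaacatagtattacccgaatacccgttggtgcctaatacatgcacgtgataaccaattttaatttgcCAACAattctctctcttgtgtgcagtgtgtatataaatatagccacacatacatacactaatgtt
GA2OX6, chr1:486550-486799, plus strand: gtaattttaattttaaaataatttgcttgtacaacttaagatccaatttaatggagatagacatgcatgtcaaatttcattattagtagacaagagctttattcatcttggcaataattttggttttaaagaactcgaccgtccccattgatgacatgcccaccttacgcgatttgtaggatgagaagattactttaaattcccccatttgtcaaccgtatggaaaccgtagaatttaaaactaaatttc
GA20OX2, chr5:21056882-21057131, minus strand: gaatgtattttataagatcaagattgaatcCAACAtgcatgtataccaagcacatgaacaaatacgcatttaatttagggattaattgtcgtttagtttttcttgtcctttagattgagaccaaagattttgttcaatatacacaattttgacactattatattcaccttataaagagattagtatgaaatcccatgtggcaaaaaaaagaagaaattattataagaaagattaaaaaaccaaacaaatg
GA3OX1 and GA2OX6, which moved in opposite directions, held neither motif in this window. GA2OX2, GA2OX4 and GA20OX2 each held CAACA once and CACCTG nowhere. CAACA occurred upstream of 8 of the 10 members and of 47.4% of 27443 protein-coding genes. CACCTG occurred upstream of 0 members and of 2.57% of those genes. In the first 500 bases after the annotated start, CACCTG was found in 1 member, GA3OX2, and in 9.30% of protein-coding genes. That match starts at base 248 of the GA3OX2 transcript, in the coding part of its first exon (chr1:30202085-30202114, minus strand), and reads as follows with the motif in capitals.
GA3OX2 site: cactctcaaaccCACCTGacttcaaatctc
The transcript level of GA3OX2 did not pass the test, as described with the other 3-oxidase. A match is only a run of letters and does not show binding.

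GA 3-oxidases make bioactive gibberellin. GA3OX1, the main 3-oxidase gene of vegetative tissue, had 1.74 and 1.57 RPKM in 35S:TEM1 replicates 1 and 2, against 6.23 and 8.05 RPKM in WT replicates 1 and 2. These are 44 and 55 reads in 35S:TEM1 and 238 and 244 reads in WT. Both 35S:TEM1 samples lay far below both WT samples, and the level was 4.31-fold lower by the means (1.66 ± 0.11 in 35S:TEM1 and 7.14 ± 1.29 in WT, SD, n = 2 each). The log2 fold change on the log2(RPKM + 1) scale was -1.61 ± 0.14 (SE, limma adjusted p = 0.00126), and the fit on reads gave -2.08 ± 0.24 (limma adjusted p = 0.000877). GA3OX1 kept its call in each of the alternatives run, leaving out any of the 4 samples included.

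GA3OX2, which acts beside GA3OX1 in germinating seeds and young seedlings, had 0.457 and 0.398 RPKM in 35S:TEM1 and 0.425 and 0.727 RPKM in WT. These levels rest on 10 and 12 reads in 35S:TEM1 and 14 and 19 in WT. The genotypes overlapped, WT replicate 1 lying between the 35S:TEM1 samples. In the fit on reads the log2 fold change was -0.34, with a 95% confidence interval of -1.45 to 0.78 (limma adjusted p = 0.646). That interval leaves room for a decrease of more than 2-fold as well as for an increase, and a fall as large as that of GA3OX1 lies outside it.

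GA 20-oxidases feed the 3-oxidase step. GA20OX2 had 1.026 and 1.002 RPKM in 35S:TEM1, against 0.282 and 0.414 RPKM in WT. The reads were 29 and 39 in 35S:TEM1 and 12 and 14 in WT, and the genotypes did not overlap. GA20OX2 rose by 1.56 ± 0.39 in the fit on reads (log2, SE, limma adjusted p = 0.0227). It rested on 3 of the samples: leaving out replicate 1 or 2 of 35S:TEM1 gave 1.54 or 1.58 (limma adjusted p = 0.0735 or 0.0784), and leaving out WT replicate 1 gave 1.26 (limma adjusted p = 0.0822), none of them a call.

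GA20OX1, the 20-oxidase gene best known for its part in stem elongation, had 0.348 and 0.449 RPKM in 35S:TEM1 and 0.128 and 0.259 RPKM in WT. With 9 and 16 reads in 35S:TEM1 and 5 and 8 in WT, the levels did not overlap, but the fit on reads gave 1.13 with an interval of -0.18 to 2.44 (limma adjusted p = 0.179). GA20OX3 was close to the limit of detection, with 1 read in each 35S:TEM1 sample and 3 and 1 reads in WT replicates 1 and 2. No difference in GA20OX3 was detectable at this depth (ratio of 35S:TEM1 to WT 0.569, with an exact 95% interval of 0.0514 to 3.97 for counting error only).

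**Figure D2:**
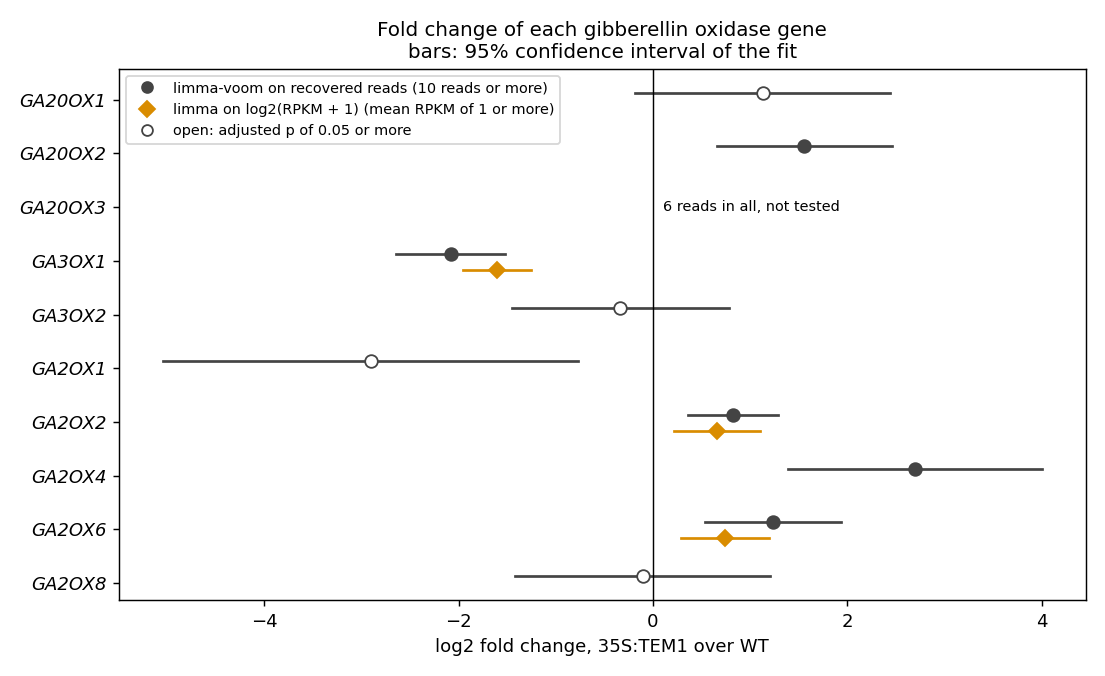
Log2 fold change of each gibberellin oxidase gene, 35S:TEM1 over WT (horizontal axis), from limma on log2(RPKM + 1) for the 3 members with a mean of at least 1 RPKM and from limma-voom on recovered reads for the 9 members with at least 10 reads. Bars are 95% confidence intervals and filled points have an adjusted p under 0.05. GA3OX1 lies to the left of 0 at -1.61 and -2.08, and GA2OX4 lies farthest to the right at 2.69.

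Among GA 2-oxidases, GA2OX2 was the most abundant. GA2OX2 had 6.29 and 8.29 RPKM in 35S:TEM1 and 3.52 and 4.99 RPKM in WT, from 237 and 430 reads in 35S:TEM1 and 200 and 225 in WT. It rose by 0.66 ± 0.18 (log2, SE, limma adjusted p = 0.0437) and by 0.83 ± 0.20 in the fit on reads (limma adjusted p = 0.0197). The samples of 1 genotype differed by more than counting error, replicate 2 being 1.32-fold above replicate 1 in 35S:TEM1 (exact 95% interval 1.12 to 1.55) and 1.42-fold above it in WT (1.17 to 1.72). GA2OX2 was no longer called when replicate 1 (0.83) or replicate 2 (0.49) of 35S:TEM1 or WT replicate 1 (0.46) was left out. Nor was it called after sample medians were made equal (0.51), under quantile normalization (0.49), with no filter or with no mean-variance trend. In the fit on reads, leaving out replicate 2 of 35S:TEM1 (0.60) or WT replicate 1 (0.55), or making the medians equal (0.66), also ended the call.

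GA2OX6, which is known as a target of the MADS factor AGL15, had 2.07 and 3.09 RPKM in 35S:TEM1, against 0.957 and 1.30 RPKM in WT. Its reads were 56 and 115 in 35S:TEM1 and 39 and 42 in WT, without overlap of the levels. GA2OX6 rose by 0.74 ± 0.19 (log2, SE, limma adjusted p = 0.0331) and by 1.24 ± 0.31 in the fit on reads (limma adjusted p = 0.0209). On the log2(RPKM + 1) scale leaving out replicate 2 of 35S:TEM1 (0.53) or WT replicate 1 (0.62) ended the call, as did equal medians (0.59), quantile normalization (0.55) or no filter. In the fit on reads, leaving out those same samples gave 0.91 for replicate 2 of 35S:TEM1 and 0.99 for WT replicate 1, again with no call. With equal medians the fit on reads kept the GA2OX6 call (1.07, limma adjusted p = 0.0448).

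GA2OX4 showed the largest ratio of the members that rose. It had 0.872 and 1.27 RPKM in 35S:TEM1 and 0.136 and 0.172 RPKM in WT, a 6.95-fold difference of the means. Its WT levels rest on 4 reads in each sample, against 17 and 34 reads in 35S:TEM1, and the counting interval of the ratio of pooled reads ran from 3.42 to 17.7. In the fit on reads GA2OX4 rose by 2.69 ± 0.57 (log2, SE, limma adjusted p = 0.0114). Leaving out replicate 2 of 35S:TEM1 gave 2.40, just short of a call (limma adjusted p = 0.0501). GA2OX4 was tested only because of its level in 35S:TEM1, with 51 reads there and 8 in WT, under the limit of 10.

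GA2OX1 had 1 read in 35S:TEM1 replicate 1 and 0 in replicate 2, against 7 reads in each WT sample. The 0 allows a level of up to 0.0881 RPKM in 35S:TEM1 replicate 2, where 3 reads would be counted, and WT had 0.188 and 0.237 RPKM. The ratio of pooled reads was 0.0812 with a counting interval of 0.00192 to 0.534. The fit on reads gave -2.91 and did not pass (limma adjusted p = 0.0517), whereas limma on log2(RPKM + 1) with no filter gave -0.25 and an adjusted p of 0.0466, where 4.70% of 24315 loci were called as lower. Its value on the reads ran from -3.93 without replicate 1 of 35S:TEM1 to -1.88 without replicate 2. It passed there with equal medians (-3.07, limma adjusted p = 0.0479) and with WT replicate 1 left out (-3.17, limma adjusted p = 0.0423), and in none of the other settings run on the reads. GA2OX8, a 2-oxidase that acts on precursors ahead of the 3-oxidase step, had 0.211 and 0.214 RPKM in 35S:TEM1 and 0.252 and 0.212 RPKM in WT. Its interval in the fit on reads was wide (-1.42 to 1.20, limma adjusted p = 0.908).

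The order of the members by level differed between the genotypes. In 35S:TEM1 GA2OX2 came first at 7.29 RPKM, followed by GA2OX6 at 2.58, GA3OX1 at 1.66, GA2OX4 at 1.07 and GA20OX2 at 1.01. In WT GA3OX1 came first at 7.14 RPKM, followed by GA2OX2 at 4.26, GA2OX6 at 1.13, GA3OX2 at 0.576 and GA20OX2 at 0.348. In each genotype the sample ranges of the leading 3 genes did not overlap with their neighbours in the order. GA2OX4 and GA20OX2 could not be ordered in 35S:TEM1, nor could GA3OX2 and GA20OX1, or GA20OX3 and GA2OX1. In WT GA2OX8 overlapped with GA2OX1, GA2OX1 with GA20OX1, and GA20OX1 with GA2OX4.

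Summed by enzyme class, the 3-oxidases stood below the 2-oxidases in 35S:TEM1 samples and above them in WT samples. The 2 GA 3-oxidase genes together had 2.19 and 1.97 RPKM in 35S:TEM1, against 6.65 and 8.77 RPKM in WT. The 5 GA 2-oxidase genes together had 9.49 and 12.9 RPKM in 35S:TEM1, against 5.06 and 6.91 RPKM in WT. The 3 GA 20-oxidase genes together had 1.41 and 1.47 RPKM in 35S:TEM1, against 0.471 and 0.699 RPKM in WT. The summed 2-oxidase level was 4.33 and 6.52 times the summed 3-oxidase level in 35S:TEM1, and 0.760 and 0.788 times that level in WT. These sums describe chosen genes and were not tested. GA3OX1 made up 79.1% and 79.8% of the 3-oxidase sum in 35S:TEM1 and 93.6% and 91.7% in WT, and GA2OX4 made up 9.19% and 9.85% of the 2-oxidase sum in 35S:TEM1 and 2.69% and 2.48% in WT.

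**Figure D3:**
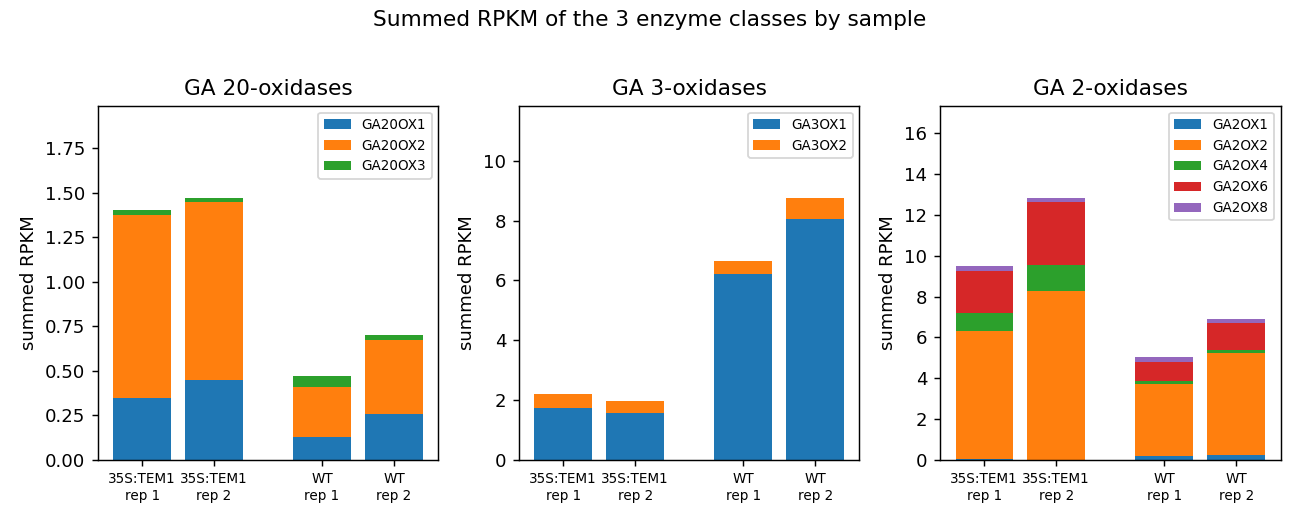
RPKM summed over the members of each enzyme class (vertical axes from 0, 1 scale per panel) in each sample, with members stacked by colour. The GA 3-oxidase bars reach 1.97 to 2.19 in 35S:TEM1 and 6.65 to 8.77 in WT, and the GA 2-oxidase bars reach 9.49 to 12.9 in 35S:TEM1 and 5.06 to 6.91 in WT.

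The plants were sampled whole, so fewer cells of a type and less RNA per cell cannot be told apart. Beside the counts of markers that follow, 18.3% of all tested genes were called as higher and 7.37% as lower. Of 8 root markers 6 were tested and all 6 rose. EXPA7 and PRP3 met the limit only through 35S:TEM1, with means of 0.356 and 0.845 RPKM in WT, so this count is a description. Of the untested markers, COBL9 was higher in 35S:TEM1 without overlap and PLT1 overlapped between the genotypes. The summed level of the 8 was 56.9 to 63.1 RPKM in 35S:TEM1 and 30.1 to 31.7 RPKM in WT. Of 4 shoot meristem markers 2 were tested and both rose (KNAT1 and STM, which are also on the list of regulators). On the log2(RPKM + 1) scale the STM call was lost with any sample left out, with equal medians and under quantile normalization. The 4 meristem markers had summed levels of 18.7 to 20.9 RPKM in 35S:TEM1 and 7.45 to 8.44 RPKM in WT. The defining genes CLV3 and WUS were at or near 0 in all samples. Of 8 leaf epidermis and guard cell markers 3 fell, 0 rose and 5 did not pass, with sums of 259 to 276 RPKM in 35S:TEM1 and 363 to 409 RPKM in WT. Most of these sums was PDF1, with means of 192 RPKM in 35S:TEM1 and 293 RPKM in WT. Without overlap 4 of the markers were lower and 1, MYB60, was higher (11.8 and 9.97 RPKM in 35S:TEM1, 9.27 and 7.92 RPKM in WT). Among all 24315 loci above 0, 18.1% were lower and 43.1% higher without overlap. All 3 green tissue markers were abundant and did not pass the test, though all 3 were lower in 35S:TEM1 without overlap. Their sums were 29050 to 32730 RPKM in 35S:TEM1 and 36750 to 36790 RPKM in WT. The part of these tissue differences in the levels of the oxidase genes was not tested.

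Of 15 other genes of gibberellin metabolism 4 were tested, and 2 of these rose, 0 fell and 2 did not pass, where 18.3% of all tested genes were called as higher and 7.37% as lower. Their median log2 fold change was 0.52, against 0.12 for all 17746 tested genes. In the fit on reads 3 of the 15 rose and 0 fell, where 19.0% of 21401 loci were called as higher. GA2, the ent-kaurene synthase of an early step, had 10.96 and 10.48 RPKM in 35S:TEM1 and 5.35 and 6.72 RPKM in WT (0.74 ± 0.12). KAO2, which completes the precursor that the 20-oxidases use, had 23.0 and 18.7 RPKM in 35S:TEM1 and 12.8 and 12.2 RPKM in WT (0.68 ± 0.12). Without 35S:TEM1 replicate 1 both calls were lost on the log2(RPKM + 1) scale (0.71 for GA2 and 0.54 for KAO2). Each kept its call in the other 19 alternatives. The fit on reads without that sample, which is 1 of these, gave 0.82 for GA2 and 0.57 for KAO2. The remaining oxidase genes were scarce: GA20OX4, GA20OX5, GA3OX3 and GA3OX4 were listed at 0 in all samples, and GA2OX3 and GA2OX7 did not exceed 0.0975 RPKM.

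Among 11 receptor and DELLA pathway genes 2 rose, 0 fell and 9 did not pass, with a median of 0.31. That count is near the background of the same fit, in which 18.3% of all tested genes were called as higher. In the fit on reads 5 of the 11 rose and 0 fell, where 19.0% of 21401 loci were called as higher. How the count compares with the background therefore depends on the fit. The receptor gene GID1A had 26.1 and 22.7 RPKM in 35S:TEM1 and 18.7 and 18.5 RPKM in WT (0.37 ± 0.10, limma adjusted p = 0.0394). SLY1, the F-box protein that targets DELLA proteins for breakdown, had 16.6 and 16.1 RPKM in 35S:TEM1 and 11.7 and 13.2 RPKM in WT (0.37 ± 0.10, limma adjusted p = 0.0372). After sample medians were made equal both stood at 0.22 and were not called. On the log2(RPKM + 1) scale leaving out any sample ended the GID1A call (0.27 to 0.46). Leaving out any but WT replicate 2 ended the SLY1 call there (0.29 to 0.39). Of the samples left out, only 35S:TEM1 replicate 1 ended the GID1A call in the fit on reads (0.28). SLY1 again kept its call only without WT replicate 2 (0.48).

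Of 11 regulators of gibberellin oxidase genes 9 were tested, of which 5 rose, 0 fell and 4 did not pass, beside 18.3% of all tested genes called as higher and 7.37% as lower. TEM1, the transgene itself, is 1 of the 5. KNAT1, a KNOX homeodomain factor of the meristem, had 14.6 and 16.1 RPKM in 35S:TEM1 and 4.65 and 5.23 RPKM in WT (1.46 ± 0.11, limma adjusted p = 0.000659). KNOX factors are known to repress 20-oxidase genes and to activate GA2OX2 and GA2OX4. SCL3, a GRAS protein that acts against DELLA proteins, had 7.29 and 6.64 RPKM in 35S:TEM1 and 3.05 and 3.86 RPKM in WT (0.84 ± 0.13). SPT, a bHLH factor that represses GA3OX1 in seeds, rose by 0.55 ± 0.13, and STM, a further KNOX factor, by 0.44 ± 0.12. Equal medians ended both calls (0.40 for SPT and 0.29 for STM). On the log2(RPKM + 1) scale leaving out any sample ended the STM call (0.35 to 0.52). Leaving out any but WT replicate 1 ended the SPT call there (0.47 to 0.62). In the fit on reads the STM call held without WT replicate 2 (0.65). The SPT call held there without WT replicate 1 (0.80) or 2 (0.71). AGL15 had 2.94 and 3.29 RPKM in 35S:TEM1 and 2.12 and 2.33 RPKM in WT and did not pass. SOM, a zinc finger gene of seed germination that lies under the limit and was picked after its values were seen, had 0.756 and 0.709 RPKM in 35S:TEM1 and 0.0836 and 0.184 RPKM in WT. PIF1 went the other way, with 4.47 and 3.66 RPKM in 35S:TEM1 and 6.34 and 5.32 RPKM in WT. It did not pass on the log2(RPKM + 1) scale (-0.43 ± 0.14) but was called lower in the fit on reads (-0.55, limma adjusted p = 0.0376).

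**Figure D4:**
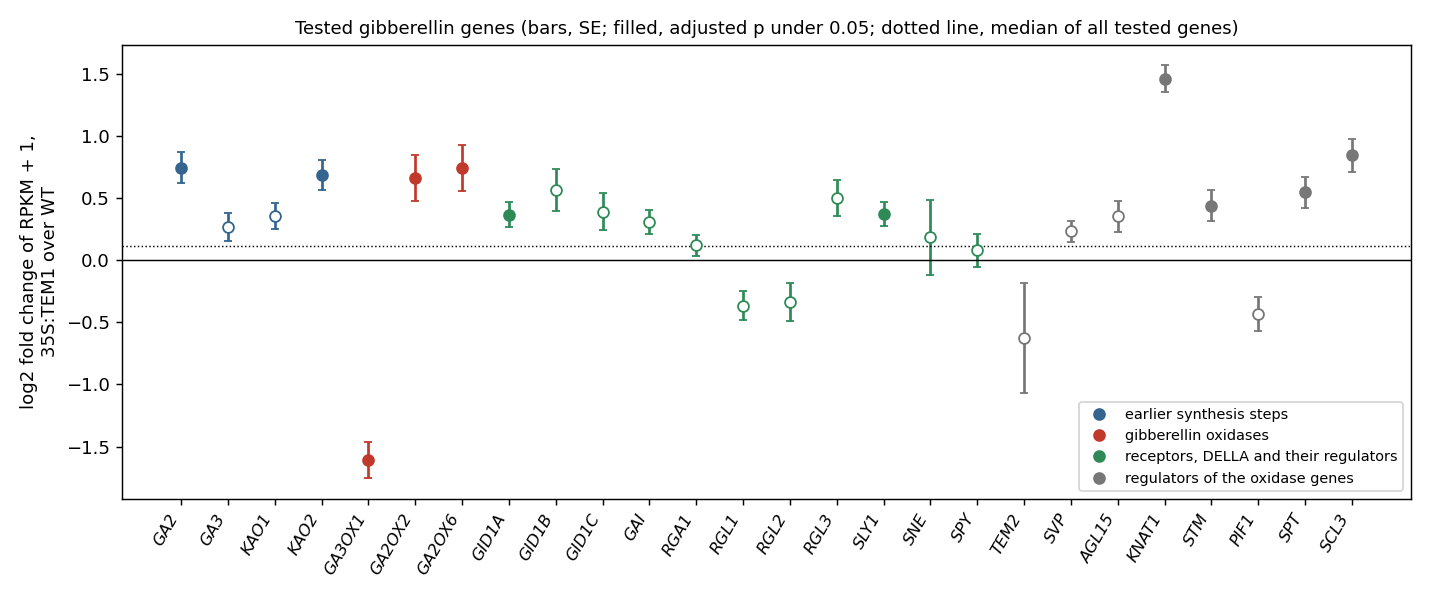
Log2 fold change on the log2(RPKM + 1) scale, 35S:TEM1 over WT, for the tested genes of gibberellin metabolism, perception and regulation other than TEM1, with SE bars, filled where the adjusted p was under 0.05. GA3OX1 at -1.61 lies below the other genes shown and KNAT1 at 1.46 above them, and the dotted line marks the median of all tested genes at 0.12.

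For each called member the 3 tested genes nearest in pattern were found by the sum of squared differences of log2(RPKM + 1), centred per gene, over the 4 samples. For GA3OX1 they were GLUR2 (0.010), DFR (0.014) and AT2G18150 (0.016). For GA2OX2 they were AT2G37580 (0.0017), ARLA1B (0.0035) and AT2G39870 (0.0037). For GA2OX6 they were WRKY11 (0.00072), AT1G56150 (0.0018) and AHL19 (0.0084). With 4 samples in 2 genotypes many genes have near patterns, and these distances only describe the samples.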

How the data were processed

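RNA from 4 pools of whole plants, 2 per genotype, was sequenced. The deposited table holds RPKM values that the authors computed for each locus. Per the submitters' processing notes, bcl2fastq 1.8.4, FastQC, STAR and Cuffdiff 2.2.1 were used with TAIR10, with no role or order given. Nothing used here states the counting step or any use of strand. Reads were recovered by finding the scaling totals and gene lengths that make every value a whole number of reads within 0.0001. Exact intervals cover counting error only, since reads are not independent molecules. Genes with a mean of at least 1 RPKM were tested with limma 3.58.1 in R 4.3.3 on log2(RPKM + 1), with a mean-variance trend and Benjamini-Hochberg adjustment over all 17746 genes, and the code was tested on simulated data. Where a replicate was left out, the lone sample of a genotype was assumed to vary like the others. Named genes were all members, up to 4 called genes per direction of each other list, TEM1 as the check of the labels, and the 3 genes nearest in pattern to each called member. STM, AGL15, SOM, PIF1, the scarce oxidases and the markers named singly were added after their values were seen. The members and gene lists were chosen with earlier results of these data known. Promoters were read from RefSeq's TAIR10.1 assembly, and its coordinates are given as TAIR10.1 only. Protein sequences were not used here.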

Additional observations from a re-analysis of the deposited data

How the results depend on the processing

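GA3OX1, KNAT1, SCL3 and TEM1 kept their direction and their call under all 20 alternatives run for each, and no called gene changed direction in its alternatives. In the fit on reads GA3OX2 and GA2OX8, which were not called in any setting, changed sign to 0.01 each without WT replicate 2 (GA3OX2) and without WT replicate 1 (GA2OX8). With equal sample medians 1884 of all tested genes were called higher and 2388 lower, and with quantile normalization 2021 were higher. Leaving out 1 sample at a time gave 1331 to 2955 genes higher and 545 to 1417 lower. The count of gibberellin oxidases called higher was 0 with equal sample medians or quantile normalization, 1 with no trend, and 4 with a limit of 0.25 RPKM or with the fit on at least 10 reads, which was chosen after seeing the data, and it ranged over 0 to 2 without 1 sample. GA2OX4, with a WT mean of 0.154 RPKM, met the limits of 0.25 RPKM and of 10 reads only through 35S:TEM1. The counts of 4 are therefore descriptions. Over all tested genes 3517 were called higher at 0.25 RPKM and 4067 in the fit on at least 10 reads. With no filter 2 oxidases were called lower. The other gibberellin metabolism genes gave 3 higher calls with no trend, in either fit on reads, or with the replicate number as a block. Receptor and DELLA genes gave 0 higher calls with no filter, equal medians or quantile normalization, 4 with robust empirical Bayes, 5 in either fit on reads, 0 to 1 without 1 sample, and 1 lower call with equal medians or quantile normalization. Regulators gave 3 higher and 1 lower call with equal medians or quantile normalization, 1 lower in either fit on reads, and 3 to 4 higher and 0 to 1 lower without 1 sample. Without its most abundant gene the ratio of summed levels, 35S:TEM1 to WT, was 1.79 for GA 20-oxidases and 0.743 for GA 3-oxidases. The causes of these changes were not tested.

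Same-numbered samples deviated together with a correlation of 0.318 over 17746 genes, but with 2 pairs and no label of a shared batch they share only a number. With the replicate number as a block 4321 genes were higher and 1801 lower, the oxidases again gave 2 higher and 1 lower call, receptor and DELLA genes gave 6 higher and 1 lower, and regulators 2 lower.

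Depth limits the members with a mean under 1 RPKM. GA20OX3, GA20OX1, GA3OX2, GA2OX1 and GA2OX8 rest on at most 19 reads in any sample, and their intervals allow changes of more than 2-fold. GA20OX2 had 12 and 14 reads in WT, and its interval in the fit on reads was 0.66 to 2.46 (log2). GA2OX4 had 4 reads in each WT sample, with an interval of 1.39 to 4.0.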
